A study of Homo sapiens with 24 samples.

Results

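The 6 arrays described here compare the 2 Aldefluor fractions of SUM159 cells that had received ID8, out of 24 arrays in the series. They are the 3 Aldefluor+ arrays and the 3 Aldefluor- arrays of experiments 2, 3 and 4, chosen by their titles and paired by experiment number. SUM159 is a human triple-negative breast cancer line with mesenchymal features, grown in F12 medium with serum, insulin and hydrocortisone. All 6 samples had 5 µM ID8, a small molecule known as an inhibitor of DYRK family kinases, for 72 hours. Within an experiment, the cells of several ID8 flasks were pooled, stained and sorted into both fractions. The other arrays used for comparison are the Aldefluor+ and Aldefluor- fractions of SUM159 given DMSO, the vehicle (6 arrays, experiments 2, 3 and 4), and of T47D given ID8 (6 arrays, experiments 5, 6 and 7). T47D is a breast cancer line of luminal type that carries the oestrogen receptor. The comparison asks which genes differ between cells with high and low aldehyde dehydrogenase activity while ID8 is present. It rests on 1 cell line, and nothing in the labels says how low the fluorescence of the Aldefluor- cells had to be.

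The Aldefluor reagent is an aldehyde that cells with active aldehyde dehydrogenases convert into a charged, fluorescent product that they retain. ALDH1A1 and ALDH1A3, cytosolic enzymes that also make retinoic acid, account for much of this activity in breast cells. Cells with high activity have been used as a working definition of breast cancer stem cells, as have CD44 and CD24 on the cell surface. DEAB, an inhibitor of the reaction, gives the background against which the gate is drawn.

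Values are log2 array signals that the authors had already adjusted for batch, for 22395 named genes. The interquartile range of the 6 arrays lay between 2.18 and 2.30, and their medians lay between 1.53 and 1.56. The SUM159 DMSO Aldefluor+ array of experiment 4 stood apart with an interquartile range of 2.05, against 2.17 to 2.33 in the other 23 arrays. It is not among the 6, but it enters the shared estimate of spread. All 8 genes typical of SUM159 and all 12 typical of T47D were higher in their own line. These differences were small, and over all genes the lines were never more than 1.18 apart (log2). The SD of the line differences over all genes was 0.118. GATA3 and PGR, which mark luminal cells, had means of 6.38 and 5.03 in these SUM159 arrays, against 7.12 and 6.25 over the T47D arrays. Levels are those after the authors' adjustment. With lines this close, a level here does not show how strongly SUM159 cells express a gene. Of these 20 line markers none differed between the fractions at an adjusted p under 0.05.

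The labels also give cells and RNA for each sample. Aldefluor+ cells yielded 12.2, 15.0 and 15.6 pg of RNA per collected cell in experiments 2, 3 and 4, a mean of 14.3 ± 1.79 pg (SD, n = 3). Aldefluor- cells yielded 10.2, 14.1 and 13.7 pg, a mean of 12.7 ± 2.17 pg (SD, n = 3). The Aldefluor+ value was the higher of its pair in 3 of 3 experiments, with a mean log2 ratio of 0.18 ± 0.0876 (SD), and the groups overlapped. The exact two-sided sign-flip permutation test gave p = 0.25, the smallest that 3 pairs allow. With DMSO the SUM159 Aldefluor+ mean was also the higher, at 12.9 ± 0.173 against 10.6 ± 1.31 pg (SD, n = 3). In sorted bulk samples, fewer cells with a transcript and less of it per cell cannot be told apart.

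With ID8, 17 genes were higher in Aldefluor+ cells and 28 were lower. ALDH1A1 was the highest, at 8.13 times the Aldefluor- signal. The desmosome gene DSP, the surface glycoprotein CD24 and the collagen receptor chain ITGA2 were also higher. Lower in Aldefluor+ cells were the cancer-testis genes SPANXC and PAGE2B, the growth factor TGFB2, and the secreted or matrix genes CCN4, COL6A3, EDIL3, SEMA3C, SERPINE2 and DKK1. Genes counted as called had an adjusted p under 0.05 (limma with the experiment as a block, Benjamini-Hochberg over all genes), and the 45 calls are 0.201% of the genes tested, with 0.0759% higher and 0.125% lower. The median difference of all 22395 genes was -0.01, and 48.9% of them were above 0.

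Each of the 45 genes differed in the same direction in all 3 experiments, and its 2 groups of 3 arrays did not overlap. Groups failed to overlap for 17% of all genes, and that feature alone is common. Differences of the called genes ran from 0.52 to 3.02 in size on the log2 scale. Of the 87 genes with a difference of at least 1, 26 were called. For 20 of the 45, at least 1 fraction's mean was below 2, and for SNORD116-18, which is among the 20, both means were. At such a level signal over background can be small and a fold change may be a low estimate, which was not tested. Leaving out experiment 2, 3 or 4 with all its SUM159 arrays gave 5, 5 and 6 calls, of which ALDH1A1, DSP and SPANXC were in all 3 fits. A fit to the 6 arrays alone called none (1706 genes at an unadjusted p under 0.05), and leaving out the SUM159 DMSO array that stood apart gave 21, all among the 45.

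**Figure D1:**
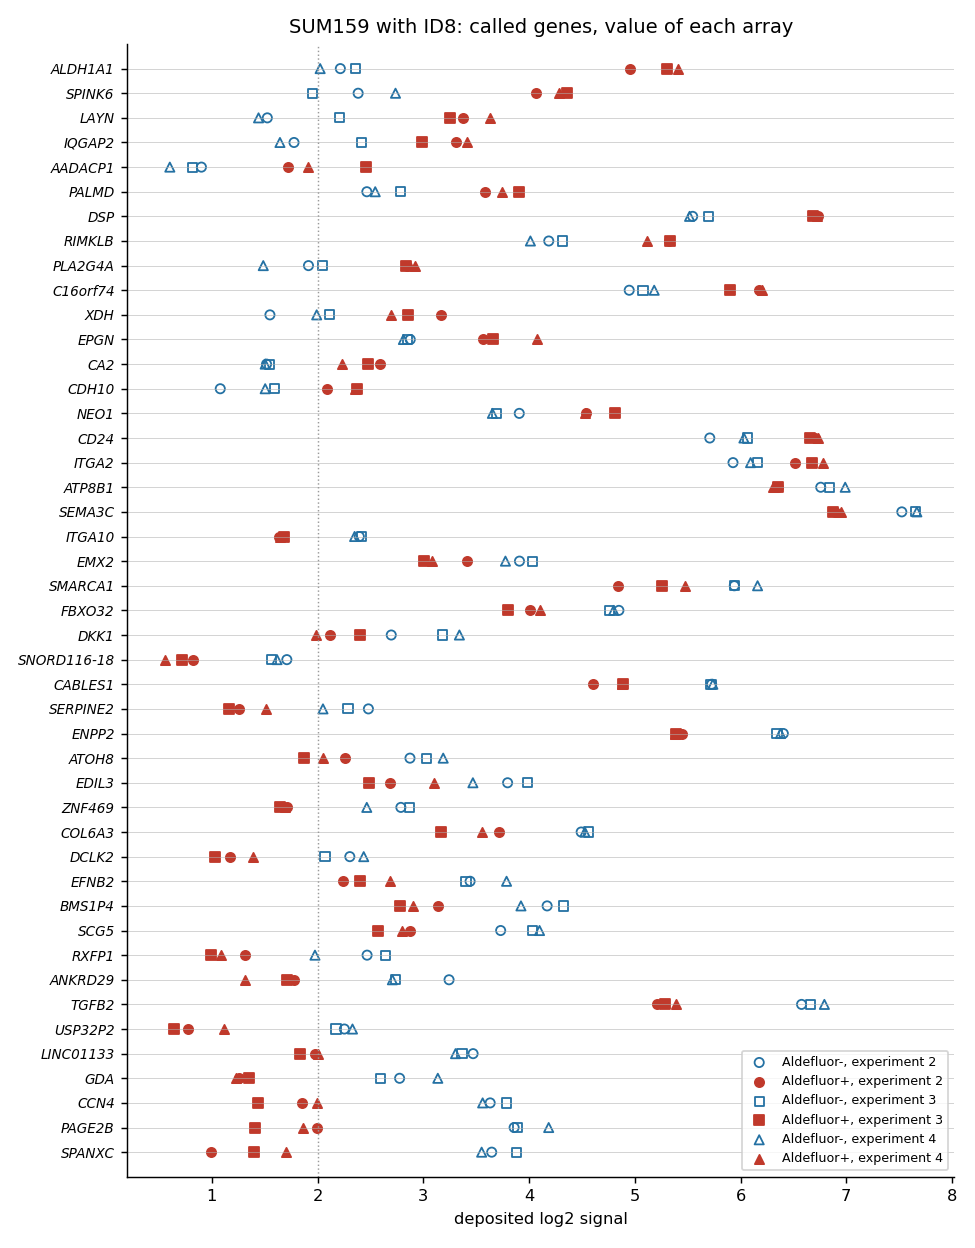
Deposited log2 signal (horizontal axis) of each of the 6 SUM159 ID8 arrays for the 45 called genes, in order of the difference. Filled symbols are Aldefluor+ and open symbols Aldefluor-, circles are experiment 2, squares 3 and triangles 4, and the dotted line marks a level of 2. For ALDH1A1 the Aldefluor+ arrays sit between 4.96 and 5.41 and the Aldefluor- arrays between 2.02 and 2.36.

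The RefSeq promoter windows (assembly GRCh38.p14, 250 bases before to 50 after the start) of ALDH1A1, DSP and SPANXC are shown because these 3 genes kept their call without each experiment. That of SPANXA1 is shown beside SPANXC because the copies are nearly identical. ALDH1A1 lies at chr9:72953004-72953303 on the minus strand, and capitals mark its CCAAT match. DSP lies at chr6:7541421-7541720 on the plus strand, and capitals mark GGGCGG, the GC box core, or its reverse complement.
ALDH1A1: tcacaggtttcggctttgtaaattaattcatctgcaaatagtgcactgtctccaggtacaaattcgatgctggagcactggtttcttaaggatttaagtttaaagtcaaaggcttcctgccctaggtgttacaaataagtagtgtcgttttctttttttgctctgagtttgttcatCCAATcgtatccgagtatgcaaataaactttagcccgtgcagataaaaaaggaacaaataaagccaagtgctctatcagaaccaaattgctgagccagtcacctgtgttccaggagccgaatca
DSP: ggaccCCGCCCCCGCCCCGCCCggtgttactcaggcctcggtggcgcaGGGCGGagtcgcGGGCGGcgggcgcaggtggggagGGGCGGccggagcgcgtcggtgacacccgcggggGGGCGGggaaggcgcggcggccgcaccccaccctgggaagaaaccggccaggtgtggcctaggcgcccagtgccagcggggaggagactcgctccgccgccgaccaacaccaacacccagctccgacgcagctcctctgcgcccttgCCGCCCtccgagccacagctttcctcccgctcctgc
SPANXC lies at chrX:141242468-141242767 and SPANXA1 at chrX:141584689-141584988, both on the minus strand, and capitals mark the bases at which they differ.
SPANXC: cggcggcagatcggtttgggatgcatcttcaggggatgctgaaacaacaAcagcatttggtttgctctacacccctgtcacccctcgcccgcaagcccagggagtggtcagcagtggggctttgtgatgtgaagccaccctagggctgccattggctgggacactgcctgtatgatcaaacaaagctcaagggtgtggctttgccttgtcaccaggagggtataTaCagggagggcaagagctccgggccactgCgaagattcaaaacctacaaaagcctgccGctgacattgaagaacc
SPANXA1: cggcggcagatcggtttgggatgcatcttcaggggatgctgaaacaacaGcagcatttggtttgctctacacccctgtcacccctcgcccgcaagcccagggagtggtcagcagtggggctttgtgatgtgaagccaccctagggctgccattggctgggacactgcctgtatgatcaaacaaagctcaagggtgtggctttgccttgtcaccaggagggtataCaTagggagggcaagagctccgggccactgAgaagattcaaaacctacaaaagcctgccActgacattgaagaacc

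The 2 SPANX windows share 295 of 300 bases and differ by A50G, T225C, C227T, C255A and G284A (SPANXC base, position from the window's 5′ end, SPANXA1 base). SPANXA2 has the same window as SPANXA1 over all 300 bases. The DSP window is 77% G and C, that of ALDH1A1 is 40.3%, and the median over all windows is 58.7%. On either strand and counting overlaps, DSP holds 8 matches to GGGCGG, and 48.3% of the 27305 genes with a window hold at least 1. ALDH1A1 holds 1 CCAAT match, as do windows of 39.7% of genes. Windows were given for 33 of the 45 genes. CCAAT was in 7 of 14 higher and 9 of 19 lower genes, GGGCGG in 7 and 13, TATAAA in 2 and 4 (14% of all genes), the TEAD core GGAATG in 2 and 5 (16.7%), and the AP-1 motif TGANTCA in 1 and 1 (9.37%).

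Among enzymes of the family that the Aldefluor assay reads, ALDH1A1 was the only call. It measured 4.96, 5.30 and 5.41 in the Aldefluor+ arrays of experiments 2, 3 and 4, and 2.21, 2.36 and 2.02 in the Aldefluor- arrays. Every Aldefluor+ array was far above every Aldefluor- array, and the spread within a fraction was small beside the gap. The difference was 3.02 on the log2 scale (SE 0.171, limma adjusted p = 1.51e-07). ALDH1A3 measured 2.20, 2.08 and 1.87 against 1.70, 1.73 and 2.20, so its groups overlapped, and its difference of 0.17 did not pass (adjusted p = 0.92). ALDH1A3 had a mean of 1.96 over the 6 arrays, near the low level of 2, so the lack of a call is weak evidence that it does not differ. Of 17 measured ALDH genes, 5 had a mean below 2 over all arrays and 1 was called. The other 16 ran from -0.24 (ALDH6A1, a mitochondrial enzyme of valine breakdown) to 0.38 (ALDH3B2). The family's median was 0.01 and 10 of 17 were above 0. None of 21 genes of retinoid metabolism and response was called, with a median of -0.09. CRABP2, the retinoic acid carrier, was at -0.29 and DHRS3, a retinaldehyde reductase, at 0.36.

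**Figure D2:**
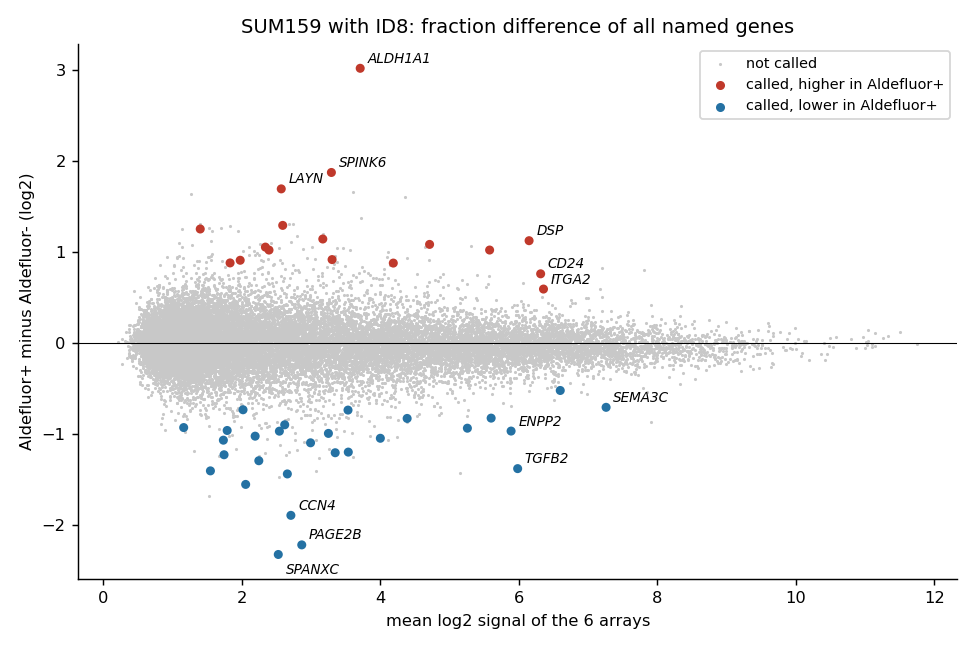
Difference between fractions with ID8 (vertical axis, log2) against the mean log2 signal of the 6 arrays (horizontal axis) for all 22395 genes. Called genes are coloured, red for higher and blue for lower in Aldefluor+, and ALDH1A1 lies alone at 3.02 above the rest.

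Desmoplakin, which DSP encodes, anchors intermediate filaments to desmosomes, the spot-like junctions of epithelial cells. DSP measured 6.73, 6.69 and 6.72 in Aldefluor+ arrays and 5.55, 5.70 and 5.52 in Aldefluor- arrays. The Aldefluor+ values were almost equal to each other, and the groups lay wide apart. The difference was 1.13 (SE 0.11, adjusted p = 0.00022), or 2.18-fold. Of 14 desmosome genes DSP was the only call. DSC2 (0.27) and DSG2 (-0.18), the cadherins that desmoplakin is tied to, lay on either side of 0, as did 9 above and 5 below among the 14. No keratin (14 measured, KRT14 at 0.54 and KRT80 at -0.64) and no gene of the other cell junctions (17 measured) was called.

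CD24, the glycoprotein whose absence from CD44-positive cells has marked breast cancer stem cells, was higher in the Aldefluor+ fraction. It measured 6.70, 6.65 and 6.74 against 5.71, 6.07 and 6.03, without overlap, a difference of 0.76 (SE 0.135, adjusted p = 0.0437). CD44 measured 5.40, 5.31 and 5.39 against 5.46, 5.61 and 5.59, a difference of -0.19 that did not pass (adjusted p = 0.80). CD24 was the only call among 26 breast stem cell markers, a list that held no ALDH gene, and the other 25 ran from -0.64 (ITGB3) to 0.25 (EPAS1). It was also the only call among 21 epithelial genes, which had a median of -0.06. CDH1, or E-cadherin, differed by 0.00 (SE 0.086) and VIM, or vimentin, by -0.06 (SE 0.103). Of 24 mesenchymal genes 8 were above 0 and 16 below, with a median of -0.10. COL6A3 (-1.05) was the only call among them, and S100A4 (-0.50) and SNAI1 (0.58), a transcription factor of mesenchymal change, did not pass.

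Further surface and adhesion genes were called in the Aldefluor+ direction. ITGA2, the chain of a collagen-binding integrin, measured 6.51, 6.68 and 6.77 against 5.93, 6.16 and 6.09, a difference of 0.59 (SE 0.115, adjusted p = 0.0468). LAYN, a hyaluronan receptor and the only call among 12 genes of hyaluronan synthesis and binding, measured 3.38, 3.25 and 3.63 against 1.52, 2.20 and 1.44. Its Aldefluor- arrays varied widely yet stayed below all Aldefluor+ arrays, and the difference was 1.70 (adjusted p = 0.0437). NEO1, a receptor for netrins, and CDH10, a cadherin, each differed by 0.88. ITGA10, another collagen-binding chain, was called in the opposite direction, at 1.64, 1.68 and 1.64 against 2.39, 2.42 and 2.35. The remaining 17 of 19 integrin genes were not called, with ITGB4 highest at 0.72 and ITGB3 lowest at -0.64.

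The other genes higher in Aldefluor+ cells had varied roles. SPINK6, a serine protease inhibitor of skin, measured 4.06, 4.36 and 4.28 against 2.38, 1.95 and 2.74, a difference of 1.88 (SE 0.325, adjusted p = 0.0387). PLA2G4A, the phospholipase that frees arachidonic acid, differed by 1.06, and CA2, a carbonic anhydrase, by 0.91. The growth factor EPGN, a ligand of the EGF receptor, measured 3.56, 3.66 and 4.07 against 2.88, 2.85 and 2.81. Its Aldefluor- arrays were nearly equal, and the difference was 0.92 (SE 0.176, adjusted p = 0.0468). IQGAP2 (1.29) and PALMD (1.14), which encode cytoskeleton-associated proteins, made up the 2 calls among 26 actin and contractile genes. RIMKLB, a peptide ligase, was at 1.09, the uncharacterised C16orf74 at 1.02 and the pseudogene AADACP1 at 1.25.

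Purine breakdown gave 1 call in each direction. XDH, which turns hypoxanthine and xanthine into urate, measured 3.16, 2.86 and 2.70 against 1.55, 2.11 and 1.99. GDA, which turns guanine into xanthine, measured 1.26, 1.35 and 1.23 against 2.78, 2.59 and 3.14. In every experiment XDH was higher and GDA lower in Aldefluor+ cells, with differences of 1.02 (SE 0.186) and -1.56 (SE 0.28), both at an adjusted p of 0.0437. The other 15 of 17 purine salvage and breakdown genes lay between -0.46 (ADA) and 0.30 (ADK).

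CCN4, a matricellular protein first known as a WNT target, measured 1.86, 1.43 and 1.99 in Aldefluor+ arrays and 3.63, 3.78 and 3.56 in Aldefluor- arrays. All Aldefluor+ arrays were below the low level of 2, and the difference was -1.90 (SE 0.284, adjusted p = 0.0132). EDIL3, a matrix ligand of integrins, measured 2.68, 2.48 and 3.10 against 3.80, 3.98 and 3.47, a 1.99-fold difference. CCN4 and EDIL3 were the 2 calls among 30 matricellular and matrix glycoproteins, of which 22 were below 0 and the median was -0.23. Taken by experiment, the medians were -0.17, -0.28 and -0.06 in experiments 2, 3 and 4. With DMSO the median of that list was 0.01 and 15 were above 0, and the change between treatments was not tested. FBN1 (-0.83), which builds microfibrils, and TGFBI (-0.53) did not pass.

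Among collagens COL6A3, a chain of the beaded microfibrils of type VI collagen, was the call. It measured 3.72, 3.16 and 3.55 against 4.49, 4.56 and 4.53, a difference of -1.05 (SE 0.199, adjusted p = 0.0446). The other 36 chains were not called and the 37 had a median of 0.06, with 22 above 0, COL5A1 lowest of the uncalled at -0.93 and COL4A1 highest at 0.54. Of 19 enzymes and chaperones that modify collagen none was called, although 14 were below 0 and the median was -0.18. LOXL2, a crosslinking enzyme, measured 2.11, 2.31 and 3.05 against 3.61, 4.00 and 3.64 and had an adjusted p of 0.19. Protease control gave SERPINE2, a protease inhibitor, at 1.25, 1.16 and 1.51 against 2.48, 2.29 and 2.05, and beside the higher SPINK6 it was the only call in that list of 23.

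TGFB2, a ligand of the TGF-beta receptors with roles in mesenchymal change and growth arrest, was lower in Aldefluor+ cells. It measured 5.21, 5.29 and 5.39 against 6.58, 6.66 and 6.79. The 2 groups were tight and far apart, with a difference of -1.38 (SE 0.244, adjusted p = 0.0437), or 2.61-fold. None of the other 19 TGF-beta family ligands was called, and they ran from -0.40 (GDF6) to 0.42 (INHBB). The 23 receptors and regulators of the pathway held no call and had a median of -0.09. The 21 SMADs and response genes also held none, with ID1 at 0.49 and TGFBI at -0.53.

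TGFB2 was also the only call among 22 genes known as targets of YAP and TAZ, co-activators that respond to cell tension. Of these 16 were below 0 and the median was -0.25. Taken by experiment, the medians were -0.17, -0.20 and -0.05 in experiments 2, 3 and 4. With DMSO 15 were above 0 and the median was 0.08, and the change between treatments was not tested. NUAK2 (-0.61) and CCN1 (-0.45) did not pass. DKK1, a secreted WNT inhibitor, measured 2.12, 2.40 and 1.99 against 2.70, 3.18 and 3.34, a difference of -0.90 (SE 0.164, adjusted p = 0.0437). It and CCN4 were the 2 calls among 23 WNT genes, which had a median of 0.02.

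Other secreted or signalling genes were lower in the Aldefluor+ fraction. SEMA3C, a guidance factor, measured 6.89, 6.88 and 6.95 against 7.52, 7.66 and 7.67, with arrays of a fraction close together, a difference of -0.71 (SE 0.0954, adjusted p = 0.00646). SCG5, a chaperone of a hormone-processing protease, measured 2.87, 2.57 and 2.80 against 3.73, 4.03 and 4.10, a difference of -1.21 (adjusted p = 0.00581). ENPP2, or autotaxin, which makes lysophosphatidic acid, differed by -0.97 (adjusted p = 0.0437), EFNB2, an ephrin ligand, by -1.10 (adjusted p = 0.0387) and RXFP1, the relaxin receptor, by -1.23 (adjusted p = 0.0321). Inside the cell, CABLES1, a partner of cyclin-dependent kinases, measured 4.60, 4.89 and 4.88 against 5.73, 5.72 and 5.74, a difference of -0.94 (adjusted p = 0.0125). FBXO32, a ubiquitin ligase subunit, and SMARCA1, a chromatin remodeller, each differed by -0.83. The transcription factors EMX2 (-0.74), ATOH8 (-0.97) and ZNF469 (-1.03), the kinase DCLK2 (-1.07), the lipid flippase ATP8B1 (-0.52) and ANKRD29 (-1.30) completed the lower protein-coding genes outside the cancer-testis families.

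The cancer-testis genes SPANXC and PAGE2B, X-linked and normally read in the male germ line, had the most negative differences. SPANXC measured 0.99, 1.40 and 1.70 in Aldefluor+ arrays and 3.65, 3.88 and 3.55 in Aldefluor- arrays. The difference was -2.33 (SE 0.243, limma adjusted p = 0.000378). The Aldefluor+ arrays were all below 2, so it may be a low estimate, which was not tested. PAGE2B measured 1.99, 1.41 and 1.87 against 3.86, 3.89 and 4.19, a difference of -2.22 (SE 0.417, adjusted p = 0.0437). Of 63 listed cancer-testis genes 41 were measured under 1 name, and 31 of those had a mean below 2 over all arrays. Their median was -0.05, with no call but these 2. PAGE5 (-1.69, adjusted p = 0.054) and MAGEB2 (-1.25, adjusted p = 0.17) were picked out after their values were seen, and PAGE2, the closest relative of PAGE2B by name, was at -0.05. Probe sets for genes with near-identical copies may read more than 1 of them. That holds too for the pseudogenes USP32P2 (-1.41) and BMS1P4 (-1.20) and the small nucleolar RNA SNORD116-18 (-0.93, from a cluster of copies). LINC01133, a long non-coding RNA, was at -1.44.

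**Figure D3:**
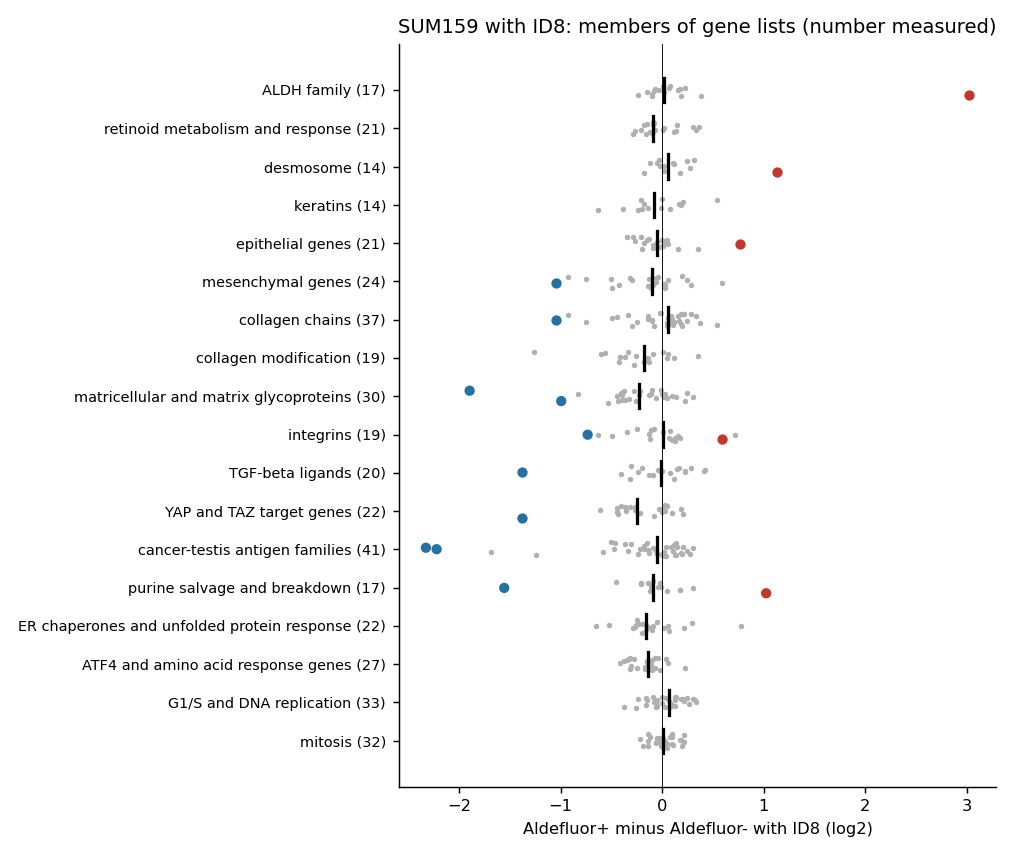
Difference between fractions with ID8 (horizontal axis, log2) for the measured members of 18 gene lists, with the number measured in brackets. Grey points were not called, coloured points were (red higher, blue lower in Aldefluor+), and black bars are medians, which lie between -0.25 and 0.06 for the lists shown.

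Several programmes often examined in such cells gave no call. For cell division, medians were 0.06 over 33 genes of G1/S and DNA replication and 0.01 over 32 mitosis genes. The 22 endoplasmic reticulum chaperones and unfolded protein response genes had a median of -0.16 with ID8 and -0.15 with DMSO. With ID8 they ran from -0.65 (ERN1, a stress sensor) to 0.77 (PDIA3, a disulfide isomerase). PDIA4 came nearest a call at -0.53 (limma adjusted p = 0.093). Of 27 genes of the ATF4 amino acid response 3 were above 0, with a median of -0.14 and TRIB3 lowest at -0.42. NRF2 targets (22 genes, median -0.10) ran from -1.21 (ABCC2, limma adjusted p = 0.19) to 0.42 (AKR1C2). Hypoxia genes (26, median -0.05) ran from -0.82 (ENO2) to 0.39 (PFKFB4). Neither list held a called gene. Cholesterol synthesis (18, median 0.09), interferon response (25, median -0.02) and NOTCH (25, median 0.07) also held none. The DYRK and CLK kinases (12, median 0.01, DYRK2 lowest at -0.28) held none either.

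Markers of cells that should be absent from a cultured line were low. Of 13 leukocyte markers 12 had a mean below 2 over all arrays, as did 8 of 9 endothelial, 7 of 8 adipocyte and 5 of 5 erythroid markers. The leukocyte list had a median of 0.18 with 10 of 13 above 0, and its summed linear signal ran from 40.9 to 45.4 in Aldefluor+ and from 39.0 to 41.2 in Aldefluor- arrays. The adipocyte marker FABP4 (0.94) and the endothelial marker ERG (0.61) were highest of these lists and CD14 (0.60) of the leukocyte markers, and none of these genes was called. Their part in the calls was not tested.

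The same fractions without ID8 gave 5 called genes, 0.0223% of those tested. ALDH1A1 was the only gene called with both ID8 and DMSO, at 3.02 and 2.80 on the log2 scale. The test of the difference between those values gave 0.22 (SE 0.242, adjusted p = 0.914). Of the 45 genes called with ID8, 37 had the same sign with DMSO, where 51.8% of all genes did. Their median size was 1.05 with ID8 and 0.29 with DMSO, and all 45 were larger with ID8, the values that had selected them. The limma test of ID8 against DMSO called none of the 45. In it 32 of them had an unadjusted p under 0.05, where 7.06% of all genes did. That test uses the ID8 arrays that had selected the 45, so the 32 are no evidence of a change with ID8.

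The only call of that test, 0.00447% of all genes, was ANKRD1, a muscle ankyrin repeat gene and a YAP target that is not among the 45. ANKRD1 measured 4.03, 4.36 and 4.62 in Aldefluor+ and 4.64, 4.92 and 4.79 in Aldefluor- arrays with ID8. With DMSO it measured 3.63, 3.83 and 3.49 against 1.58, 1.61 and 1.53, the last 3 all below the low level of 2. ANKRD1 was thus higher in Aldefluor+ cells by 2.07 with DMSO and differed by -0.44 with ID8. That is a change of -2.52 (SE 0.264, limma adjusted p = 0.00121). At that low level the sizes of 2.07 and -2.52 may be low estimates, which was not tested. The ANKRD1 call was lost without experiment 2 or without experiment 3, with a smallest adjusted p of 0.158 and 0.297 over all genes.

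**Figure D4:**
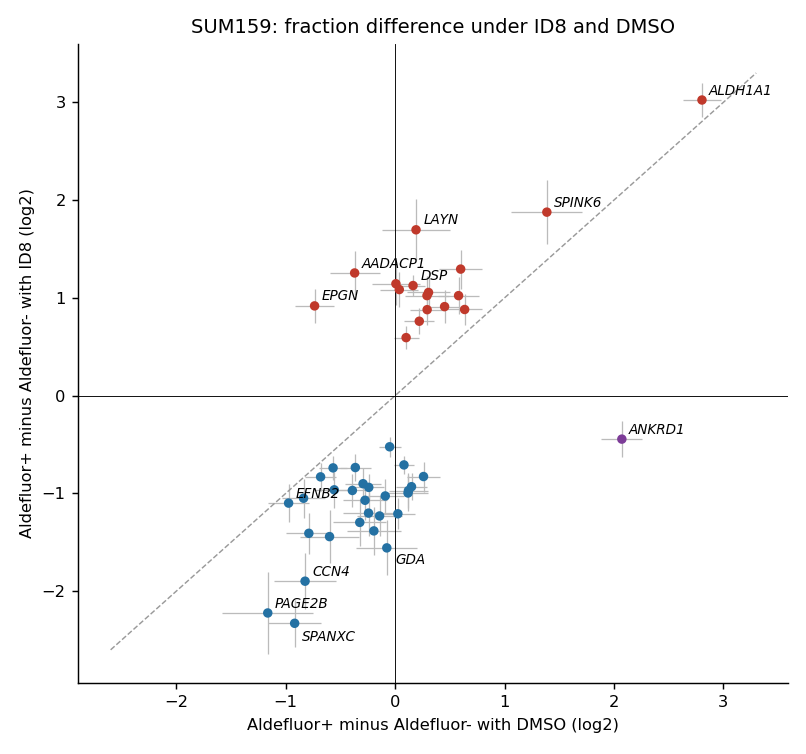
Difference between SUM159 fractions with ID8 (vertical axis) against that with DMSO (horizontal axis), both log2, for the 45 called genes and ANKRD1. Bars are SE, the dashed line marks equality, and ANKRD1 is the purple point at 2.07 with DMSO and -0.44 with ID8.

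Among genes called with ID8, DSP was at 6.15 ± 0.08 in Aldefluor- and 6.32 ± 0.22 in Aldefluor+ cells with DMSO, and at 5.59 ± 0.10 and 6.71 ± 0.02 with ID8 (SD, n = 3). TGFB2 was at 4.44 ± 0.17 and 4.24 ± 0.08 with DMSO, and at 6.68 ± 0.11 and 5.29 ± 0.09 with ID8. Levels with ID8 were not tested against those with DMSO here. CD24 was at 6.95 ± 0.12 and 7.17 ± 0.41 with DMSO and 5.94 ± 0.20 and 6.70 ± 0.04 with ID8. EPGN was at 3.87 ± 0.01 in Aldefluor- and 3.14 ± 0.21 in Aldefluor+ cells with DMSO against 2.85 ± 0.03 and 3.76 ± 0.27 with ID8, and the test of that difference gave an adjusted p of 0.0651. CCN4 was at 3.22 ± 0.14 and 2.40 ± 0.27 with DMSO and 3.66 ± 0.11 and 1.76 ± 0.29 with ID8.

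**Figure D5:**
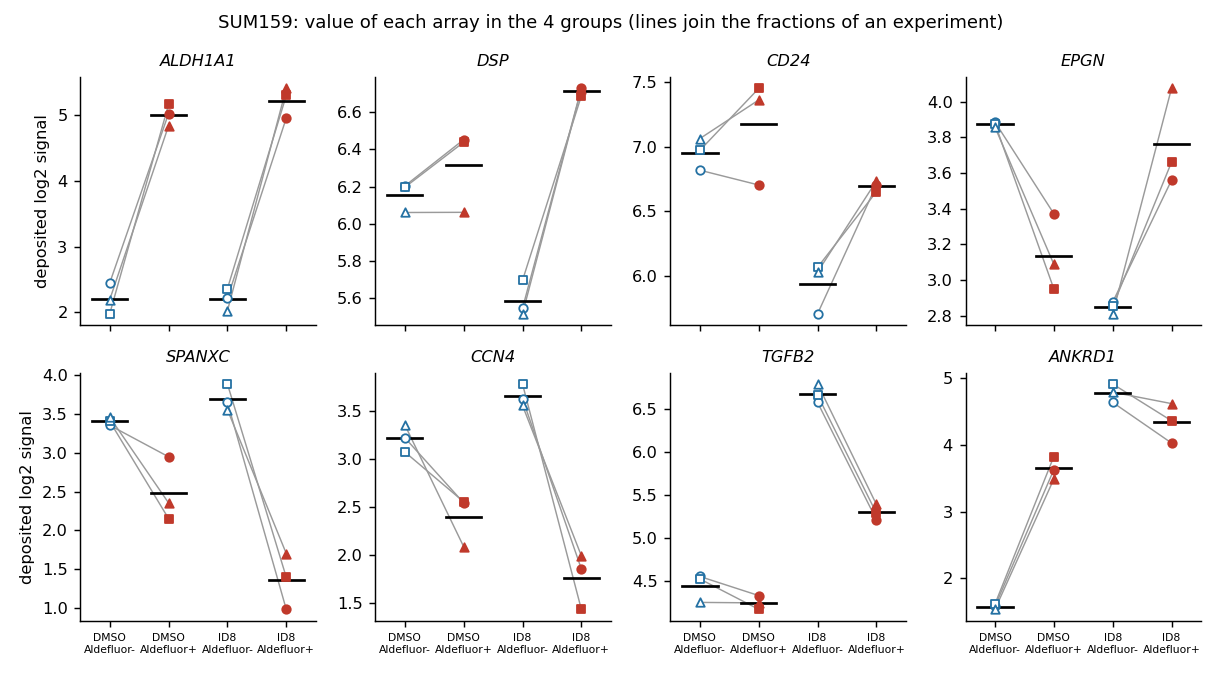
Deposited log2 signal (vertical axes, each with its own range) of every SUM159 array in the 4 groups of treatment and fraction for 8 genes. Symbols are experiments as circles (2), squares (3) and triangles (4), black bars are group means, and grey lines join the 2 fractions of an experiment. ALDH1A1 steps up with both treatments, from 2.21 to 5.01 with DMSO and from 2.20 to 5.22 with ID8.

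T47D cells given the same agent separated differently. Of the 45 genes 21 had the same sign between the T47D ID8 fractions, where 48.6% of all genes did. SEMA3C was called in T47D too with the same sign, at -0.52 (limma adjusted p = 0.02). ALDH1A1 differed by -0.03 in T47D, and the test of 3.02 against that gave 3.05 (adjusted p = 2.34e-05). TGFB2 was lower in Aldefluor+ cells of SUM159 by 1.38 and higher in those of T47D by 1.57 (adjusted p = 0.0053 in T47D, 0.000654 for the difference of -2.95). EFNB2, CABLES1, DKK1 and FBXO32 turned in the same way. The test between the lines called 53 genes, 0.237% of all, and 14 of them were among the 45, which had been selected on the same SUM159 arrays.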

How the data were processed

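RNA of the sorted cells was amplified, labelled and measured on an Affymetrix plate of Human Gene ST 2.1 arrays. The deposited values are log2 signals per probe set from RMA, adjusted by the authors for experiment and processing batch with ComBat, per the series' design text; limma and RMA are also named in the submitters' processing notes. The sources used here do not give versions or the covariates kept in ComBat, and the adjustment can shrink differences between fractions and lines by an unknown amount. Of 53617 probe sets, 23871 had 1 gene symbol in the platform's table, 1842 several and 27904 none. Only the first were named, and 22569 of their symbols were updated by gene number to RefSeq (GRCh38.p14). The probe set with the highest mean was used for the 632 genes with more than 1, which gave 22395 genes, 49% of them with a mean below 2. Promoter windows are RefSeq's.

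limma 3.58.1 (R 4.3.3, lmFit and eBayes) was fitted to the 24 arrays with a mean for each of 8 groups, and experiments nested in lines served as blocks. Benjamini-Hochberg adjustment ran over all genes, and the fit was tested on simulated data. The experiment number pairs the samples because the labels state that it marks a separate experiment. Deviations of same-numbered arrays correlated at -0.286, -0.31 and -0.268. The authors had already adjusted the values for experiment, which takes out signal that an experiment's arrays share. A positive correlation could therefore hardly appear, and these values cannot show whether the experiments shared signal. The part of the adjustment in the negative sign was not tested. Nothing says that experiments used separate stocks of cells. Arrays carry no count depth, and their number limits the precision. Alternatives changed the block, the arrays, the scaling, the filter, the probe sets and the variance prior.

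Named genes are all called genes, all ALDH genes, called members and up to 2 highest and 2 lowest members of each of 43 gene lists, and genes called between ID8 and DMSO. GATA3, PGR, CDH1 and VIM come from the markers of the lines, and CCN1, DSC2, FBN1, MAGEB2, PAGE2 and PAGE5 were added after their values were seen. The comparison, genes and lists were chosen with earlier results of these data known, so lists carry no test of their own. Unnamed probe sets entered 1 alternative only.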

Additional observations from a re-analysis of the deposited data

Results flagged for a closer look

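The results here differed between groups by a test of the difference itself (limma, adjusted p under 0.05). For 16 named genes the fraction difference with ID8 differed between SUM159 and T47D, given as SUM159 minus T47D on the log2 scale. It was above 0 for ALDH1A1 (3.05), DSP (1.25), SLC7A11 (1.17) and ITGA2 (1.02). It was below 0 for TGFB2 (-2.95), SPANXC (-2.52), EFNB2 (-2.25), FOS (-2.10), CABLES1 (-1.99), DKK1 (-1.84), ANKRD29 (-1.76), FBXO32 (-1.73), DCLK2 (-1.56), ZNF469 (-1.48), ENPP2 (-1.30) and SNORD116-18 (-1.02). SLC7A11, a cystine transporter, and FOS, an immediate early gene, were not called between the SUM159 fractions, at 0.22 and -0.68. The other 14 had been called between the SUM159 ID8 fractions, which is why they were named. The same SUM159 arrays enter the test between the lines, so these 14 are not independent evidence of a difference between the lines. Over all genes that test called 53, or 0.237%. Within SUM159, the fraction difference of ANKRD1 with ID8 minus that with DMSO was -2.52. No group had more than 3 arrays, so no array was tested as an outlier.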

How the results depend on the processing

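All 45 differences, where tested, kept their sign under each of the 14 alternatives, but that was largely fixed beforehand. The 45 had the same direction in all 3 experiments, so leaving 1 experiment out could not turn a sign. Changing the block, the other arrays or the variance prior leaves the difference itself as it was. The number called moved. Without the replicate block 208 genes were called between the ID8 fractions, 36 between ID8 and DMSO and 289 between the lines, against 45, 1 and 53. The 208 included all 45, whose differences are the same in both fits. The values had already been adjusted for experiment. A fit without the block (19.8 residual degrees of freedom against 16) may therefore understate the spread and call too many. The fit to the 12 SUM159 arrays called 16. The fit to the 6 arrays called 0 in limma, with 1706 at an unadjusted p under 0.05 and a smallest adjusted p of 0.0615. Leaving out 1 experiment gave 5 to 6, 0 to 1 and 23 to 25 calls (for 0 calls, 1246 and 1361 genes had an unadjusted p under 0.05). When the SUM159 DMSO array that stood apart (Aldefluor+, experiment 4) was left out, 21, 2 and 55 were called. The 24 genes lost from the 45 had limma adjusted p-values of 0.05001 to 0.0529. With unnamed probe sets, 21 were called between the ID8 fractions. Between ID8 and DMSO, quantile normalization gave 3 calls, a mean of at least 2 gave 4, a mean of at least 3 gave 5 and the trended, robust prior gave 5. Between the lines the last 3 gave 98, 83 and 96. Genes with low signal and 3 arrays per group limit what can be called.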
